A study of Homo sapiens with 4 samples.

Results

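Genes that define endothelial cells were followed through the 4 sorted populations. They were CDH5, KDR, TEK, TIE1, FLT1, VWF, ESAM, EMCN, CLDN5 and ENG, 10 of the 60234 genes in the count table. The genes were chosen by name, as ones known to mark the inner lining of vessels, and all 10 were matched. The cells came from 1 human embryonic stem cell (hESC) line in which GFP reports NKX2.5, a transcription factor of the heart lineage, with GFP placed at 1 copy of the gene, and spin embryoid bodies of that line were led towards cardiomyocytes. The RA populations had received 1 µM retinoic acid from day 4 to day 7 and the control (CTR) populations the solvent DMSO over the same days, and cells were separated by GFP at day 31 by the series' own description, while its methods place the sort slightly earlier. This gave RA GFP-positive, CTR GFP-positive, RA GFP-negative and CTR GFP-negative cells, with 1 library of each. RA and CTR cells were separate cultures, so that treatment and culture cannot be told apart, and the differences between RA and CTR have no replicate check and no test. The fractions can be compared in both the RA and the CTR cells.

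Endothelial cells hold together through junctions built on VE-cadherin (CDH5) and claudin-5 (CLDN5), and they sense growth factors through 2 families of receptor tyrosine kinases, the VEGF receptors (KDR, FLT1) and the TIE receptors (TEK, TIE1). VEGF from neighbouring cells drives vessel growth, and angiopoietin-1 from supporting cells acts through TEK to keep vessels quiet. Endoglin (ENG) is a coreceptor for BMP9 and TGF-beta ligands that is not confined to endothelium, since stromal cells and some cardiac cells carry it too. In the developing heart the inner lining, the endocardium, is itself an endothelium.

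The libraries held 28125727 reads in RA GFP-positive cells, 28643091 in CTR GFP-positive cells, 26222787 in RA GFP-negative cells and 4371101 in CTR GFP-negative cells. Levels are given as CPM (reads of a gene relative to the depth of its library), scaled by trimmed mean of M values (TMM) factors, and a gene without reads was bounded at 3 reads, which is 0.639 CPM in the small CTR GFP-negative library and between 0.105 and 0.117 CPM in the others. NKX2-5 itself was at 463 and 593 CPM in the RA and CTR GFP-positive cells against 9.74 and 14.5 CPM in the GFP-negative cells, so the sort separated the libraries in the labelled direction. Every value in brackets after a ratio is a 95% interval that covers counting error only. In such mixed populations fewer endothelial cells and less RNA per endothelial cell cannot be told apart.

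The first comparison asked where the endothelial genes lay with respect to the NKX2.5:GFP sort. All 10 had reads in both GFP-negative libraries, and CDH5, CLDN5, ESAM, TEK, TIE1 and KDR were more than 10-fold higher there than in GFP-positive cells in both treatments. On the scale of log2(CPM + 1), 9 of 10 were at least 2-fold lower in GFP-positive cells in CTR, where 17.0% of all genes tested were lower and 14.1% higher by that measure. In RA all 10 were at least 2-fold lower in GFP-positive cells, against 14.1% of all genes lower and 10.2% higher. CDH5, TEK, VWF, ESAM and CLDN5 in CTR, and VWF, ESAM and CLDN5 in RA, reached the 1 CPM needed for testing in the GFP-negative library alone. The counts thus follow in part from the filter. The median difference of the 10 genes was -3.66 in CTR and -3.46 in RA, beside 0.03 and 0.01 over all genes tested, and without the pseudocount and with absent genes at their bound it was -4.68 and -3.79, while with a pseudocount of 5 CPM it was -2.23 and -2.44. ENG was the exception in CTR. Fraction was also fitted over the 4 libraries by edgeR's quasi-likelihood test with the RA or CTR culture as block, a fit added after the data were seen that leaves 1 residual degree of freedom and counts any unequal fraction difference in RA and CTR as error. In it 9 of 10 were lower in GFP-positive cells, with Benjamini-Hochberg adjusted p between 0.00015 for KDR and 0.0473 for VWF, where 10.1% of all genes were lower and 7.94% higher. ENG had a log2 fold change of -0.64 and an adjusted p of 0.189 in that edgeR fit.

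**Figure D1:**
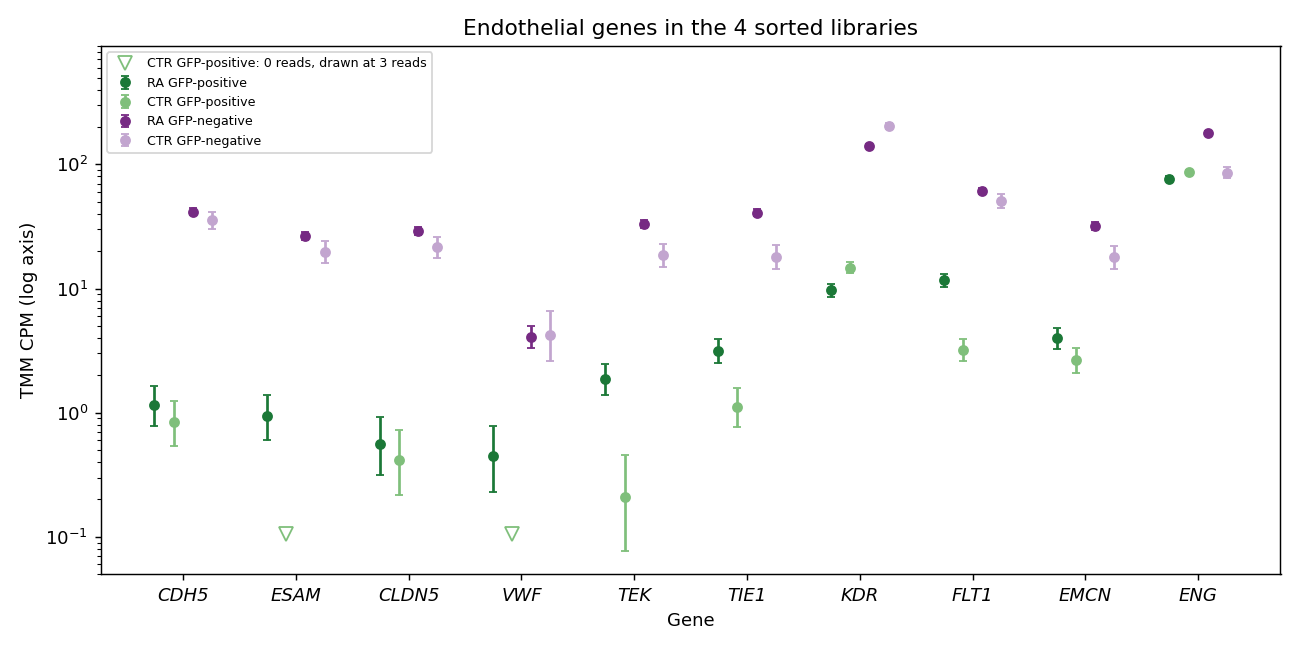
TMM CPM (log axis) of each endothelial gene in the 4 libraries, with points for single libraries and bars for 95% Poisson intervals of the reads; open triangles stand for 0 reads and are drawn at 3 reads. The GFP-negative points lie above the GFP-positive ones for 9 of the genes in both treatments, while for ENG the CTR GFP-negative point (86.0 CPM) lies level with the CTR GFP-positive point (86.7 CPM).

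Of the junction genes, CDH5, the cadherin of endothelial adherens junctions (ENSG00000179776, GRCh37 chr16:66400593-66438687), had 31 reads in RA GFP-positive cells, 24 in CTR GFP-positive cells, 1071 in RA GFP-negative cells and 167 in CTR GFP-negative cells, that is 1.16, 0.838, 41.7 and 35.6 CPM. Both GFP-negative libraries were high and both GFP-positive ones close to absent. The level in GFP-negative cells was 36.0-fold (25.2 to 53.3) that in GFP-positive cells in RA and 42.5-fold (27.6 to 68.1) in CTR. CLDN5, the main claudin of endothelial tight junctions (ENSG00000184113, chr22:19510547-19515068), followed it closely, with 15, 12, 752 and 101 reads in the same order, or 0.561, 0.419, 29.3 and 21.5 CPM. Its GFP-negative level was 52.3-fold (31.5 to 93.8) the GFP-positive level in RA and 51.4-fold (28.2 to 102.7) in CTR. ESAM, an immunoglobulin-like adhesion molecule of endothelial junctions (ENSG00000149564, chr11:124622479-124632186), had 25, 0, 679 and 93 reads, or 0.935, 0, 26.5 and 19.8 CPM. No ESAM read was found among the 28643091 reads of CTR GFP-positive cells, so that its GFP-negative level was at least 189-fold higher in CTR, and it was 28.3-fold (19.0 to 44.1) higher in RA.

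The TIE receptors showed the same split between fractions. TEK, the angiopoietin receptor (ENSG00000120156, chr9:27109139-27230172), had 50, 6, 849 and 87 reads, or 1.87, 0.209, 33.1 and 18.5 CPM. The 4 libraries fell in the order RA GFP-negative, CTR GFP-negative, RA GFP-positive and CTR GFP-positive, and no neighbouring pair in that order had overlapping intervals. The GFP-negative level was 17.7-fold (13.3 to 24.0) the GFP-positive level in RA and 88.5-fold (39.1 to 248) in CTR. TIE1, the partner receptor that modulates TEK signalling (ENSG00000066056, chr1:43766653-43788779), had 84, 32, 1051 and 85 reads, or 3.14, 1.12, 41.0 and 18.1 CPM. Its libraries fell in the same order as those of TEK, also with no overlap of intervals between neighbours, and the fraction ratio was 13.0 (10.4 to 16.5) in RA and 16.2 (10.7 to 25.2) in CTR.

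KDR, the main signalling receptor for VEGF-A (ENSG00000128052, chr4:55944648-55991762), was the highest of the 10 genes per kb of exon in CTR GFP-negative cells, with 259, 423, 3635 and 958 reads, or 9.69, 14.8, 142 and 204 CPM. In contrast to the TIE receptors, CTR exceeded RA in both fractions. Its GFP-negative level was 14.6-fold (12.9 to 16.7) the GFP-positive level in RA and 13.8-fold (12.3 to 15.5) in CTR. FLT1, a VEGF receptor that also exists as a soluble form binding the ligand away (ENSG00000102755, chr13:28874483-29069282), had 311, 92, 1567 and 238 reads, or 11.6, 3.21, 61.1 and 50.7 CPM. Both GFP-negative libraries lay above both GFP-positive ones. The gap was 5.25-fold (4.65 to 5.95) in RA and 15.8-fold (12.4 to 20.3) in CTR, and these intervals did not overlap. This was not particular to FLT1, as the intervals of TEK also did not overlap, nor did those of ENG, with its larger gap in RA. Whether the gaps differ between RA and CTR was not tested.

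EMCN, a sialomucin of capillary and venous endothelium (ENSG00000164035, chr4:101316498-101801283), had 106, 76, 817 and 84 reads, or 3.96, 2.65, 31.8 and 17.9 CPM, and was 8.03-fold (6.55 to 9.93) higher in GFP-negative cells in RA and 6.75-fold (4.89 to 9.32) higher in CTR. VWF, the clotting factor stored in endothelial granules (ENSG00000110799, chr12:6058043-6233936), was the lowest of the genes per kb of exon in both GFP-negative libraries, with 12, 0, 105 and 20 reads, or 0.449, 0, 4.09 and 4.26 CPM. Its 2 GFP-negative libraries could not be separated by their intervals, which ran from 3.35 to 4.95 CPM in RA and from 2.60 to 6.58 CPM in CTR. The GFP-negative level was 9.12-fold (5.01 to 18.2) the GFP-positive level in RA. In CTR it was 40.7-fold with the GFP-positive library set at 3 reads, without counting error of the 20 GFP-negative reads. VWF has a closely similar pseudogene and only uniquely aligned reads were counted, so that its reads may be undercounted.

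ENG (ENSG00000106991, chr9:130577292-130616937) differed from the other genes in having much RNA in every library, with 2047, 2484, 4614 and 404 reads, or 76.5, 86.7, 180 and 86.0 CPM. The RA GFP-negative library stood above the other 3. In CTR the GFP-negative level was 0.993-fold (0.891 to 1.10) the GFP-positive level, and in RA it was 2.35-fold (2.23 to 2.48). Of the exon bases of ENG, 313 of 3840 (8.15%) lie opposite exons of an unnamed gene on the other strand (ENSG00000225032), and since counting ignored strand, reads from the 2 genes cannot be told apart there. No other gene of the 10 shared exon bases with a counted gene.

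**Figure D2:**
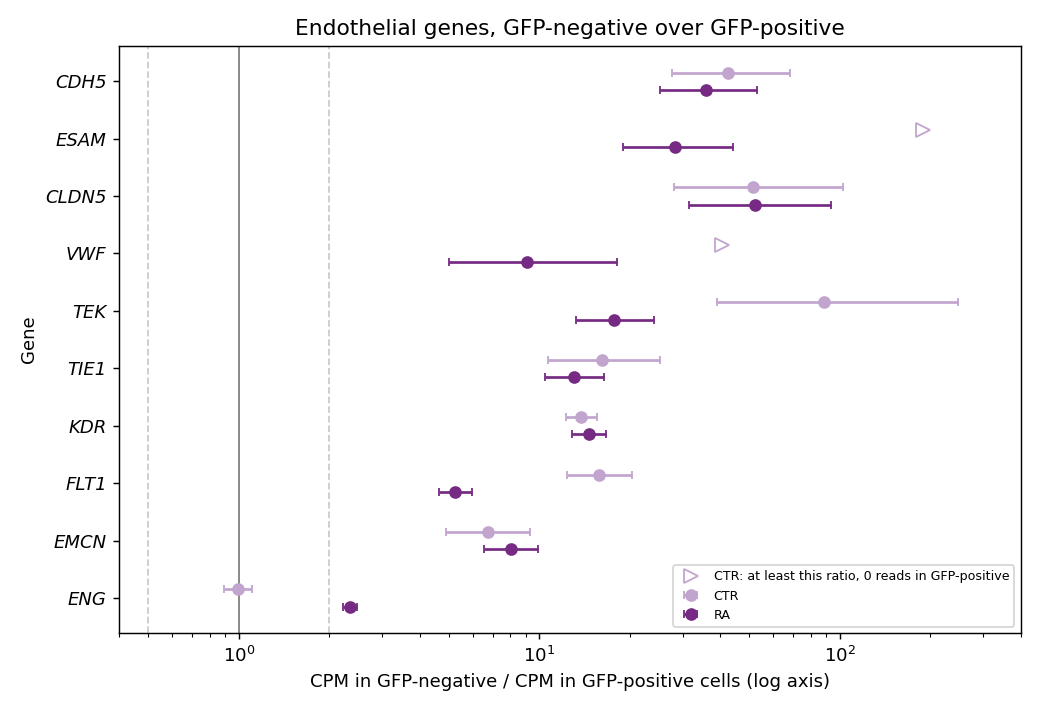
Ratio of CPM in GFP-negative to CPM in GFP-positive cells (log axis) for each endothelial gene in CTR and RA, with 95% intervals for counting error. Open triangles stand where the GFP-positive library had 0 reads. They set it at 3 reads and leave out counting error of the GFP-negative library. Dashed lines mark 2-fold. Where both libraries had reads, ratios reach 52.3 for CLDN5 in RA and 88.5 for TEK in CTR, and ENG in CTR sits at 0.993. The triangle of ESAM in CTR lies higher, at 189.

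Between genes, levels were compared per kb of annotated exon. In RA GFP-negative cells ENG was highest at 46.8 CPM per kb, followed by KDR at 22.3, ESAM at 9.06 and CLDN5 at 8.55 CPM per kb. CDH5, TEK, EMCN, TIE1 and FLT1 lay between 4.86 and 6.94 CPM per kb, and VWF was at 0.394 CPM per kb. In CTR GFP-negative cells KDR (32.2 CPM per kb) stood before ENG (22.4 CPM per kb), and in both GFP-positive libraries ENG was first, at 19.9 CPM per kb in RA and 22.6 CPM per kb in CTR, with KDR second at 1.53 and 2.33 CPM per kb.

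The fraction ratios differed between the genes, and the same values can be read without scaling. Each gene was expressed per CDH5 read of the same library, a measure that was chosen after the values were seen. CLDN5 had 0.484 reads per CDH5 read in RA GFP-positive cells against 0.702 in RA GFP-negative cells, and with 12 reads to 24 of CDH5 in CTR GFP-positive cells against 0.605 per CDH5 read in CTR GFP-negative cells, and the intervals of the fractions overlapped in both treatments. With 15 and 12 CLDN5 reads these are wide, from 0.243 to 0.924 in RA GFP-positive cells, and do not show that the proportion was kept. ESAM had 0.807, 0, 0.634 and 0.557 reads per CDH5 read, with overlapping intervals in RA, while the upper end of the interval for CTR GFP-positive cells was 0.166.

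Per CDH5 read, most receptors, EMCN and ENG stood higher in GFP-positive cells. ENG had 66.0 and 103.5 reads per CDH5 read in RA and CTR GFP-positive cells against 4.31 and 2.42 in the GFP-negative cells. KDR had 8.36 and 17.6 against 3.39 and 5.74, FLT1 10.0 and 3.83 against 1.46 and 1.43, EMCN 3.42 and 3.17 against 0.763 and 0.503, and TIE1 2.71 and 1.33 against 0.981 and 0.509 reads per CDH5 read. For these 5 genes the intervals of the fractions did not overlap in either treatment. TEK, at 1.61 in RA GFP-positive cells against 0.793 in RA GFP-negative cells, and VWF, at 0.387 against 0.0980, stood higher in RA GFP-positive cells. In CTR the intervals of the fractions overlapped for TEK, with 6 reads to 24 of CDH5 against 0.521 per CDH5 read, and for VWF, with 0 against 0.120. Of the 9 genes set against CDH5, 7 were thus above their GFP-negative proportion in RA and 5 in CTR, counts that restate the fraction ratios, since CDH5 had one of the largest, and that were the same with CLDN5, which is no independent reference. The CDH5 counts of the GFP-positive libraries were only 31 and 24 reads, and all proportions of a library share them.

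**Figure D3:**
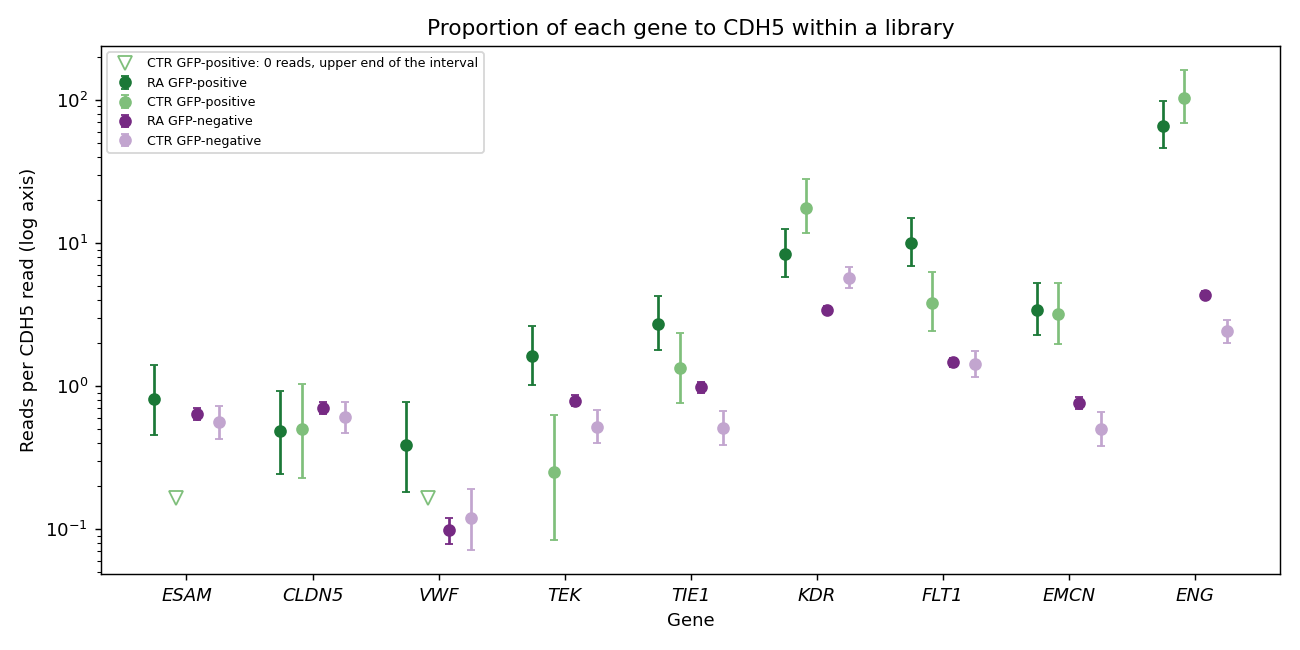
Reads of each gene per CDH5 read (log axis) in the 4 libraries, with 95% intervals for counting error; open triangles give the upper end of the interval where a gene had 0 reads. CLDN5 lies between 0.484 and 0.702 in all libraries, whereas ENG lies at 66.0 and 103.5 in the GFP-positive and at 4.31 and 2.42 in the GFP-negative libraries.

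Of 13 transcription factors of endothelial and blood-forming cells, 12 were tested in CTR and 9 were at least 2-fold lower in GFP-positive cells, and in RA 9 of 13 were lower and 1 higher. All genes tested gave 17.0% lower and 14.1% higher in CTR and 14.1% and 10.2% in RA, so the single higher factor is near its share. Their median differences were -2.58 in CTR and -2.20 in RA. Some of the lower factors reached 1 CPM in the GFP-negative library alone, so that the counts follow in part from the filter. SOX18, a factor of vascular and lymphatic development, had 1.46, 0.872, 26.3 and 10.7 CPM in the order RA GFP-positive, CTR GFP-positive, RA GFP-negative and CTR GFP-negative. ETS1, of the ETS family that binds many endothelial promoters, had 20.7, 4.96, 76.0 and 59.0 CPM, and its relative ERG had 0.486, 0.175, 16.3 and 6.82 CPM. Both were thus higher in GFP-negative cells in both treatments. ETV2, an early ETS factor picked after its values were seen, was not, with 1.91, 0.244, 1.01 and 0.213 CPM. LMO2, a bridging cofactor of the TAL1 complex, went the other way in RA, with 74.9, 29.4, 27.9 and 30.7 CPM, and KLF2, a factor induced by flow, was high throughout at 153.8, 83.5, 243.9 and 107.5 CPM.

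Of 28 further surface and secreted endothelial genes, 21 of the 26 tested were at least 2-fold lower in GFP-positive cells in each treatment, beside 17.0% of all genes in CTR and 14.1% in RA, with medians of -2.65 in CTR and -2.42 in RA. Some of the lower genes reached 1 CPM in the GFP-negative library alone, so that these counts too follow in part from the filter. PLVAP, which forms the diaphragms of fenestrae and caveolae, had 5.91, 4.89, 82.0 and 94.3 CPM, and TM4SF1, a tetraspanin-like protein of endothelial cells, had 21.7, 9.98, 194.0 and 258 CPM. Both were low in GFP-positive cells and did not reach a 2-fold difference between RA and CTR GFP-negative cells. S1PR1, a sphingosine-1-phosphate receptor, was at 55.6, 47.8, 34.4 and 22.8 CPM and at least 2-fold higher in GFP-positive cells in CTR, and EGFL7, an endothelial matrix protein, was at 91.6, 71.2, 143.6 and 80.9 CPM. Like ENG, these last genes were not close to absent in any library.

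Genes of vessel subtypes were divided, and their counts stand beside 17.0% of all genes tested lower and 14.1% higher in GFP-positive cells in CTR, and 14.1% lower and 10.2% higher in RA. Of 10 arterial and Notch genes, 6 were lower and 1 higher in GFP-positive cells in CTR, and 5 were lower and 1 higher in RA. Some of the lower ones reached 1 CPM in the GFP-negative library alone. EFNB2, the arterial ephrin, had 95.9, 29.5, 325 and 276 CPM. JAG2, a Notch ligand, was the higher one, at 129.3 and 129.9 CPM in RA and CTR GFP-positive cells against 57.2 and 43.2 CPM. Of 5 venous and lymphatic genes, 4 were lower in CTR and 3 in RA, and PROX1, a lymphatic regulator that cardiomyocytes also use, was higher in both, at 88.3 and 76.7 CPM against 13.8 and 18.5 CPM. Of 7 endocardial genes, 2 were lower and 1 higher in GFP-positive cells in CTR, and 4 were lower and 1 higher in RA, so that the CTR counts and the single higher genes are near those shares. NPR3, a natriuretic peptide receptor, had 21.2, 3.28, 134.5 and 56.9 CPM, and NFATC1, a factor of valve formation, lay between 15.4 and 26.0 CPM. NPR3 was thus far higher in GFP-negative cells, and NFATC1 showed no 2-fold difference in any of the 4 comparisons. GATA5, a factor of endocardium and myocardium, was the higher one, at 130.6 and 138.1 CPM in RA and CTR GFP-positive cells against 61.3 and 35.6 CPM.

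**Figure D4:**
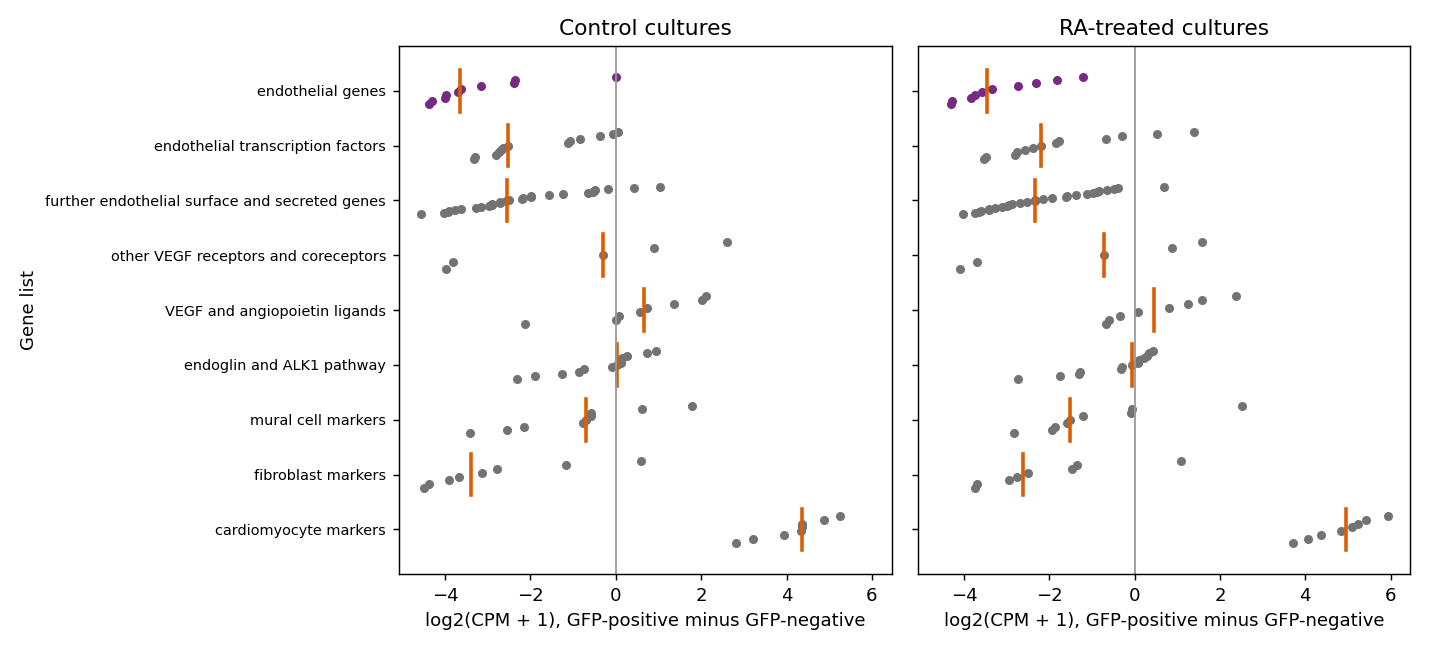
Difference of log2(CPM + 1), GFP-positive minus GFP-negative, for each gene of 9 lists in CTR (left) and RA (right); points are genes and orange bars the median over all genes of a list, whatever their level. The endothelial genes and fibroblast markers lie mostly left of 0, the cardiomyocyte markers right of it, and the ligands on both sides.

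Markers of other cell types moved with the sort as well. The 8 fibroblast markers summed to 15173 and 3967 CPM in RA and CTR GFP-positive cells and to 61658 and 32119 CPM in RA and CTR GFP-negative cells, with COL3A1 and COL1A1 the highest and none at 0. At least 2-fold lower in GFP-positive cells were 7 of the 8 in each treatment, beside 14.1% of all genes tested in RA and 17.0% in CTR. PDGFRA went the other way, at 295 and 132 CPM in RA and CTR GFP-positive cells against 138.5 and 87.3 CPM. It was the 1 higher gene of the 8 in RA, where 10.2% of all genes were higher. The 9 epithelial markers summed to 776 and 786 CPM against 2782 and 1632 CPM, with KRT8 the highest in every library, followed by KRT19 in the GFP-positive and KRT18 in the GFP-negative libraries. The 9 mural cell markers summed to 2207 and 1485 CPM against 2122 and 1356 CPM, but DES, also a gene of muscle, made up most of the GFP-positive sums, and without it they were 619 and 357 CPM against 1844 and 1028 CPM. At least 2-fold lower in GFP-positive cells were 6 of the 9 in RA and 3 in CTR, and DES was higher in both, where 14.1% and 17.0% of all genes were lower and 10.2% and 14.1% higher in RA and CTR, so that 1 higher gene of 9 is near the share. NOTCH3 had the most mural CPM in both GFP-negative libraries. The 8 cardiomyocyte markers summed to 15945 and 17823 CPM against 438 and 874 CPM, led by MYH6 and TNNT2. The blood cell list was low, at 23.9 and 17.9 CPM against 60.6 and 49.8 CPM, with RUNX1 and ITGA2B the top pair except in RA GFP-negative cells, where LAPTM5 stood second, PTPRC at 0 reads in both GFP-positive libraries and at 27 and 6 reads in RA and CTR GFP-negative cells, and HBZ at 0 in all 4. Their part in the endothelial differences was not tested.

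Of the ligands of the endothelial receptors, 3 of the 7 tested were at least 2-fold higher in GFP-positive cells in each treatment, 1 was lower in CTR and none in RA, beside 14.1% of all genes tested higher and 17.0% lower in CTR and 10.2% and 14.1% in RA. The single lower gene is near its share. VEGFA, the ligand of KDR and FLT1, was at 964 and 1069 CPM in RA and CTR GFP-positive cells against 319 and 417 CPM in GFP-negative cells. VEGFC, a ligand of KDR and FLT4, was at 45.6 and 47.4 CPM against 18.5 and 10.9 CPM, and ANGPT1, the activating ligand of TEK, was at 241 and 73.7 CPM against 45.4 and 16.2 CPM. These were the 3 higher ones in both treatments. VEGFB (184, 141, 105 and 94.8 CPM) and PGF (33.1, 27.3, 42.3 and 26.0 CPM), both ligands of FLT1, showed no 2-fold difference between fractions. ANGPT2, an antagonist of TEK made by activated endothelium and outside the rule for named genes, was picked after its values were seen, with 1.38, 0.838, 2.81 and 7.03 CPM, and was the one lower in CTR.

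Among the other receptors, FLT4, the receptor of lymphatic endothelium, matched the endothelial genes with 2.24, 0.558, 54.4 and 20.9 CPM, and CD34, a sialomucin of endothelial and blood progenitors, did so with 0.636, 0.209, 20.3 and 18.1 CPM. The coreceptors NRP1 (237, 347, 78.2 and 56.2 CPM) and NRP2 (426, 744, 233 and 401 CPM) were instead higher in GFP-positive cells, at least 2-fold for NRP1. PTPRB, a phosphatase that restrains TEK, was highest in RA GFP-negative cells at 21.8 CPM and lay at or under 13.6 CPM in the others.

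Promoter windows from RefSeq (GRCh38.p14; 250 bases before and 50 after a start site) were held for 6 of the 10 genes, KDR, TEK, TIE1, FLT1, EMCN and ENG, with 2 windows for TEK. CDH5, VWF, ESAM and CLDN5 had no entry. They were searched on both strands for the ETS cores CGGAAG and AGGAAG, and 4 of the 7 windows held one (TIE1 and EMCN 1 each, FLT1 and ENG 2 each), against 46.9% of all 35116 windows. The SOX core ACAAAG was in 3 windows (KDR, ENG and 1 of TEK; 16.1% of all) and the GATA core AGATAA in 1 of TEK (10.3% of all). A direct repeat bound by retinoic acid receptors, exactly 2 copies of AGGTCA with 5 bases between, was in none of the 7 and in 2 windows of all 35116. So rare an exact match could hardly occur in 7 windows, and its absence tells nothing about these genes. The 250 bases before the start are shown for TIE1 (chr1:43300732-43300981, plus strand), FLT1 (chr13:28495129-28495378, minus strand) and ENG (chr9:127854659-127854908, minus strand), since these 3 passed 2-fold between RA and CTR in one fraction and hold an ETS core, which is in capitals in either orientation (CTTCCT is AGGAAG on the other strand).
TIE1: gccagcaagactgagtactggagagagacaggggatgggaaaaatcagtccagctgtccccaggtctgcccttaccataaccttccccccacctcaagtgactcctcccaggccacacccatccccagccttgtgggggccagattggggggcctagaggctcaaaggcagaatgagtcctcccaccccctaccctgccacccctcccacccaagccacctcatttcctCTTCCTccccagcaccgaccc
FLT1: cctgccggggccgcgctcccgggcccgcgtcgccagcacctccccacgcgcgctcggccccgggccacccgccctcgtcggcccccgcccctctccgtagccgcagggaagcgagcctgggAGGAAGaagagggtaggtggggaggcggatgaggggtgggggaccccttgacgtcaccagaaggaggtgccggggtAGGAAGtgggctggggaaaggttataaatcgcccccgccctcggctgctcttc
ENG: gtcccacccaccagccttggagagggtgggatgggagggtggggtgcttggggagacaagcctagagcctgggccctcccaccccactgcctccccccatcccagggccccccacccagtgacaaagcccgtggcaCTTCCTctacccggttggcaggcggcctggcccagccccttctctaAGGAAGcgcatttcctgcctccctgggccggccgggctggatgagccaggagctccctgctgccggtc
The core of TIE1 lies close to the start site. A match of these letters is a description and not a binding site.

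The second comparison asked which endothelial genes differed between RA and CTR within GFP-positive cells, the cardiac fraction. TEK and FLT1 were higher with RA by at least 2-fold on the log2(CPM + 1) scale and no gene was lower, where 5.09% of all genes tested were higher and 2.12% lower. TEK was at 1.87 CPM in RA against 0.209 CPM in CTR, a ratio of 8.93 (3.83 to 25.5) that rests on 50 and 6 reads, and its log2 difference of 1.25 became 0.40 with a pseudocount of 5 CPM. TEK reached 1 CPM in the RA library alone, so that its count among the higher genes follows in part from the filter. FLT1 was at 11.6 against 3.21 CPM, a ratio of 3.62 (2.86 to 4.62). TIE1 lay just below the limit, with a difference of 0.97 and a ratio of 2.81 (1.85 to 4.37), since a pseudocount of 1 CPM shrinks the difference of so low a gene, and with 0.25 CPM the difference was 1.31. VWF, ESAM and CLDN5 were under 1 CPM in both libraries and were not counted. VWF and ESAM had 12 and 25 reads with RA against 0. With CTR set at 3 reads the ratios were 4.29 and 8.93, without counting error of the RA reads.

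The remaining genes differed less in GFP-positive cells. EMCN was 1.49-fold (1.10 to 2.03) higher with RA, and the intervals of CDH5 (1.38; 0.786 to 2.46) and CLDN5 (1.34; 0.585 to 3.13) included 1. KDR was lower, at 0.656-fold (0.560 to 0.768), and so was ENG, at 0.883-fold (0.832 to 0.937). When the libraries were thinned at random to the depth of the smallest, the KDR difference moved from -0.56 to -1.15 and that of ENG from -0.18 to -0.02. The median difference was 0.49 over all 10 genes and 0.44 over the 7 tested, beside 0.01 over all genes tested, and it turned to -0.18 with a filter of 10 CPM, which KDR, FLT1 and ENG passed. Beside this, all 8 fibroblast markers were at least 2-fold higher with RA in the same fraction, and their sum was 15173 CPM in RA against 3967 CPM in CTR. The mural list had 2 genes higher and 1 lower of 9, and the epithelial list 2 higher and none lower of 9. The 8 cardiomyocyte markers did not pass 2-fold. Of all genes tested, 5.09% were higher and 2.12% lower. Their part in the endothelial differences was not tested.

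In GFP-negative cells TIE1 and ENG were higher with RA by at least 2-fold and no gene was lower, where 8.69% of all genes tested were higher and 7.61% lower. TIE1 was at 41.0 CPM in RA against 18.1 CPM in CTR, a ratio of 2.26 (1.81 to 2.86), and its log2 difference of 1.14 fell just under the limit with a pseudocount of 5 CPM (0.99) and when thinned (0.97). ENG was at 180 against 86.0 CPM, a ratio of 2.09 (1.89 to 2.32). With library size alone the log2 difference of ENG was 0.92 in place of 1.05, under the 2-fold limit, and it was 0.93 and 0.97 with 2 other scalings. TEK (1.79; 1.43 to 2.25), EMCN (1.78; 1.42 to 2.26), CLDN5 (1.36; 1.11 to 1.69), ESAM (1.34; 1.07 to 1.68) and FLT1 (1.21; 1.05 to 1.39) were higher with RA by less.

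CDH5 differed by 1.17-fold (0.996 to 1.39) and VWF by 0.961-fold (0.592 to 1.64), with intervals that included 1, and KDR was again lower with RA, at 0.694-fold (0.646 to 0.746). The median difference of the 10 genes was 0.41, beside 0.04 over all genes tested. At least 2-fold higher with RA in this fraction were 5 of 8 fibroblast, 4 of 9 epithelial and 2 of 9 mural markers. Lower were 3 of 8 cardiomyocyte markers. Of all genes tested, 8.69% were higher and 7.61% lower. The part of these markers in the endothelial differences was not tested.

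**Figure D5:**
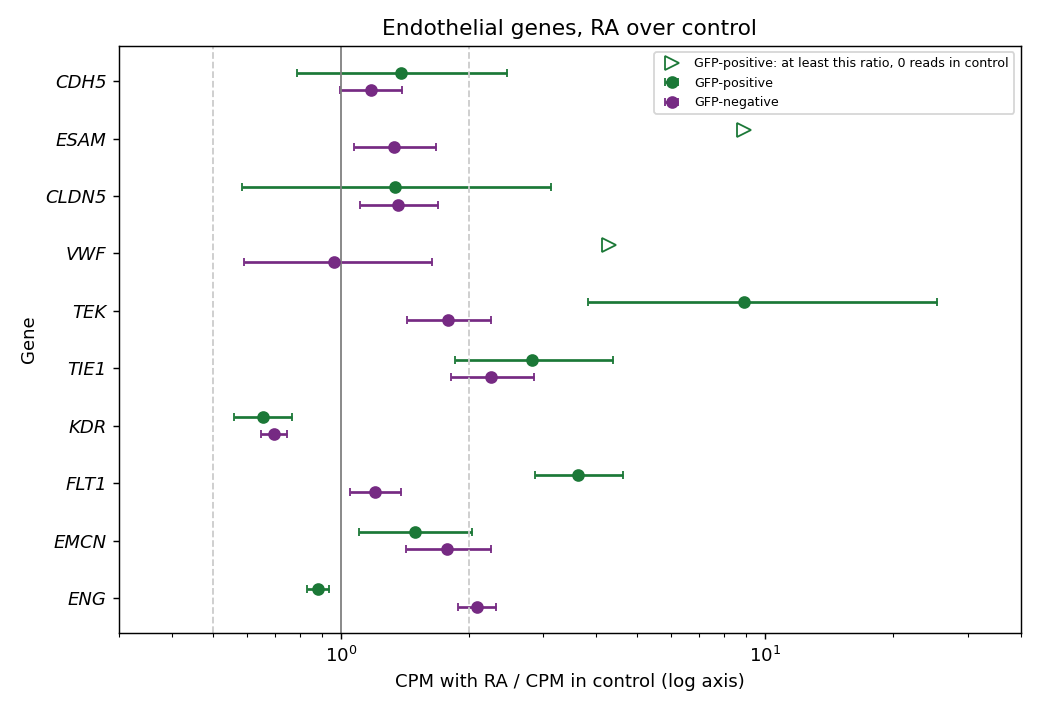
Ratio of CPM with RA to CPM in control (log axis) for each endothelial gene in GFP-positive and GFP-negative cells, with 95% intervals for counting error. Open triangles stand where the control library had 0 reads. They set it at 3 reads and leave out counting error of the RA library. Dashed lines mark 2-fold. KDR lies below 1 in both fractions (0.656 and 0.694), and ENG lies below 1 in GFP-positive (0.883) and above it in GFP-negative cells (2.09).

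Around these genes, ANGPT1 was higher with RA in both fractions, with a log2(CPM + 1) difference of 1.70 in GFP-positive cells and of 1.43 in GFP-negative ones, whereas VEGFA differed by -0.15 and -0.39. FLT4 was also higher with RA, by 1.06 and 1.34. ANGPT1 was the only ligand higher, of 7 tested in each fraction. ANGPT2 was lower with RA in GFP-negative cells, at 2.81 against 7.03 CPM, where 7.61% of all genes tested were lower. Of the transcription factors, 4 of 10 tested were higher with RA in GFP-positive cells and 6 of 13 in GFP-negative cells, beside 5.09% and 8.69% of all genes tested, and none was lower. ETV2, 1 of the 4, reached 1 CPM in the RA library alone, at 1.91 against 0.244 CPM. Its count thus follows in part from the filter. KLF4, a factor of quiescent endothelium, was higher in both, by 2.19 and 1.08. In the same order, ETS1 differed by 1.86 and 0.36 and LMO2 by 1.32 and -0.13, and HHEX, a factor of early endothelium and liver, differed by 0.88 and 2.55. Whether these genes differed with RA unequally in the fractions was not tested.

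Of the further endothelial genes, 4 of 17 tested were higher with RA in GFP-positive cells, and 7 of 26 were higher and 2 lower in GFP-negative cells. Of all genes tested, 5.09% and 8.69% were higher with RA in these fractions. The share that was lower is close to the 7.61% of all genes tested. LYVE1, 1 of the 4 and picked after its values were seen, reached 1 CPM in the RA GFP-positive library alone, with 47 reads against 0. Its count thus follows in part from the filter. APLNR, the apelin receptor, was at 60.4 CPM in RA GFP-positive cells against 7.68 CPM in CTR, and at 84.4 against 33.2 CPM in GFP-negative cells. STAB1, a scavenger receptor, was at 54.6 CPM in RA GFP-negative cells against 17.9 CPM in CTR. CALCRL, a receptor for adrenomedullin, and ROBO4, a guidance receptor, were picked after their values were seen, at 32.0 against 5.75 CPM and 16.4 against 3.83 CPM in GFP-negative cells. The lower ones, ESM1 and APLN, likewise picked after their values were seen, were at 1.79 against 11.7 CPM and 2.57 against 8.73 CPM. Of the subtype genes, JAG1, a Notch ligand, was at 535 against 91.1 CPM in GFP-positive and 438 against 133 CPM in GFP-negative cells, and EFNB2 differed by 1.67 and 0.24 on the log2(CPM + 1) scale. In the arterial and Notch list 4 of 9 tested were higher with RA in GFP-positive cells. In GFP-negative cells JAG1 was the 1 of 10, near the 8.69% of all genes. Of 5 venous and lymphatic genes 2 were higher in each fraction and 1 lower in GFP-negative cells. Of 7 endocardial genes 2 were higher in each fraction.

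For the ENG difference in GFP-negative cells, its pathway was read alongside. Of 14 listed genes, GDF2 was not analysed here. In GFP-negative cells 2 of 13 were higher with RA and none lower, beside 8.69% and 7.61% of all genes tested, and in GFP-positive cells none of 12 was higher and 1 lower, beside 5.09% and 2.12%. Counts this small cannot be set apart from those shares. ID1, a target of BMP signalling, was at 375 CPM in RA against 177 CPM in CTR GFP-negative cells, and ID3, another, at 260 against 131 CPM, just under the 2-fold limit. ACVRL1, the type I receptor that pairs with endoglin and that was picked after its values were seen, was at 21.1 against 9.37 CPM. BMPR2, a type II receptor, was at 145 against 143 CPM. Other genes of the list with high CPM stayed within 2-fold in GFP-negative cells. Their log2(CPM + 1) differences were 0.62 for ID2, 0.61 for SMAD7, 0.28 for SMAD5, 0.24 for SMAD6 and -0.20 for TGFBR1. The gene lower with RA in GFP-positive cells was TGFBR2, the type II receptor for TGF-beta, picked after its values were seen, at 19.6 against 46.7 CPM.

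The genes with profiles most like CDH5 were sought among the 12406 genes that reached 10 CPM in any library, by Euclidean distance of log2(CPM + 1) values centred over the 4 libraries. In order of distance they were CLDN5 (0.238), COL5A3 (0.396), CD34 (0.492), RNF128 (0.529), ESAM (0.563), EMP1 (0.574), PLVAP (0.590), CD93 (0.605), ARSJ (0.650) and EGFL6 (0.652). CLDN5, CD34, ESAM, PLVAP and CD93 are known endothelial genes, and COL5A3 encodes a fibrillar collagen chain. Among the nearest 100 of the 12406 genes were 4 of the 8 endothelial genes ranked beside CDH5. With these 4 included, 15 genes of the endothelial lists were among them. How many list genes were ranked was not counted, so that the 15 cannot be read as a share. The ranks of the others were 29 for KDR, 30 for TEK, 115 for TIE1, 208 for FLT1, 264 for EMCN and 2500 for ENG, while VWF did not reach 10 CPM. CDH1, an epithelial cadherin picked after its rank was seen, stood at rank 40, so that likeness over 4 libraries does not separate endothelial from other GFP-negative genes, and with a pseudocount of 5 CPM only 2 of the 10 nearest were retained.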

How the data were processed

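Each of the 4 sorted populations gave 1 RNA-seq library. After trimming, the authors used GSNAP for alignment to a modified hg19 and kept unique alignments, sorted these with SAMtools 0.1.18 and counted them per Ensembl gene with HTSeq 0.6.1p1, in intersection-nonempty mode and without strand. The deposited values are these raw read counts. Not given in the sources used here are which Ensembl release was counted and how hg19 was modified.

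Symbols were matched by Ensembl identifier (43521 of 60234 genes), and coordinates and exon lengths are those of GENCODE lifted to GRCh37. CPM were computed with TMM scaling over all 4 libraries (factors of 0.951 for RA GFP-positive, 1.000 for CTR GFP-positive, 0.979 for RA GFP-negative and 1.074 for CTR GFP-negative) from edgeR 4.0.16 in R 4.3.3. Differences were taken on log2(CPM + 1). A gene was tested if 1 of the libraries compared reached 1 CPM, and called at a difference of at least 1, a fixed rule of size, as single libraries allow no test between 2 of them. Fraction was also fitted over the 4 libraries with edgeR's quasi-likelihood test, culture (RA or CTR) as block and Benjamini-Hochberg adjustment over 20525 genes (threshold 0.05). Ratios carry Clopper-Pearson and levels exact Poisson intervals (95%, scipy 1.17.1 in Python 3.11.15). Amplified reads are not independent molecules, so that only counting error is covered by the intervals and by the floor of 3 reads. Ratios to that floor leave out the counting error of the other library. The calculations were tested on simulated data. Alternatives were library size alone, DESeq2 1.42.0 size factors, upper quartile factors, library size after removing mitochondrial genes and the top 10 by abundance, a pseudocount of 0.25 or 5 CPM, 1 random thinning to 4371101 reads, filters of 10 CPM and 1 read, and folds of 1.5 and 4.

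The 10 genes and the 13 other lists were chosen with earlier results of these data known. Named were all 10 genes, up to 8 genes per list with at least 10 CPM in a library, the 2 highest and the absent genes of lists for other cell types, and the 10 genes nearest to CDH5.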

Additional observations from a re-analysis of the deposited data

Results flagged for a closer look

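ENG differed with RA in opposite directions in the sorted fractions. The difference of log2(CPM + 1), RA minus CTR, was -0.18 in GFP-positive cells (76.5 against 86.7 CPM) and 1.05 in GFP-negative cells (180 against 86.0 CPM), and both ratio intervals, which cover counting error only, excluded 1. The difference in GFP-positive cells was -0.02 when the libraries were thinned to the smallest, and that in GFP-negative cells was 0.92, 0.93 and 0.97 with 3 other scalings. Whether the fractions differ in this was not tested, as each condition has 1 library.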

How the results depend on the processing

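The counts of genes lower in GFP-positive cells stayed within 1.5 times of 9 in CTR and 10 in RA under every alternative run, but with a pseudocount of 5 CPM the medians were -2.23 and -2.44. With RA in GFP-positive cells, the 2 higher genes became 1 with a pseudocount of 5 CPM or a filter of 10 CPM, which turned the median to -0.18, and 0 at 4-fold. They became 3 with a pseudocount of 0.25 CPM, when thinned and at 1.5-fold. Thinning also gave a median of 0.67 and 1 lower gene, KDR. In GFP-negative cells, the 2 higher genes became 1 with library size alone, upper quartile factors, library size without mitochondrial and abundant genes, a pseudocount of 5 CPM or thinning, 4 at 1.5-fold and 0 at 4-fold. Library size alone and library size without abundant genes moved the median of all genes by -0.13 and -0.11 there. Of 40 differences, 38 kept their sign under all 7 alternatives of scale, pseudocount and depth. CLDN5 with RA in GFP-positive cells turned to -0.18 when thinned, and ENG between fractions in CTR turned from 0.01 to between -0.04 and -0.13. Of the 10 genes nearest to CDH5, 2 were retained with a pseudocount of 5 CPM. Over all genes, calls in the order RA GFP-positive, RA GFP-negative, fractions in CTR and fractions in RA numbered 1260, 3038, 5837 and 4393, against 513, 707, 2709 and 2368 with a pseudocount of 5 CPM, 650, 943, 2973 and 2656 with a filter of 10 CPM, 3408, 6253, 9734 and 8119 at 1.5-fold, and 202, 401, 1655 and 1198 at 4-fold. Calls with RA in GFP-positive cells were 2079 with a pseudocount of 0.25 CPM and 1926 when thinned. The cause of these changes was not tested. The pairing of fractions by culture gave 9 genes lower in the edgeR fit with culture as block, where ENG was not called. For RA against CTR no paired fit was made, as each treatment had 1 culture.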
